A study of Mus musculus with 8 samples.

Results

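The 34 genes described here encode the route from glucose uptake through glycolysis to lactate, and the entry of pyruvate into mitochondria. They comprise glucose transporters, the enzymes of glycolysis with their isozymes, lactate dehydrogenases, monocarboxylate transporters, pyruvate dehydrogenase subunits and kinases, and the mitochondrial pyruvate carrier. They were taken by symbol, and all 34 were found among the 18257 genes of the table. Polyadenylated RNA was measured in 8 libraries of wild-type mouse morulae, 4 after culture with A485 and 4 after control culture. A485 is a small molecule that blocks the catalytic acetyltransferase domain of p300 and CBP, coactivators that acetylate histones. Treated embryos were cultured in KSOM medium with 2 µM A485, and control embryos in KSOM with 0.1% DMSO, both from the 4-cell stage onward. The DMSO share of the A485 medium is not stated. Each library pooled 3 whole embryos freed of the zona pellucida, so a library holds all cells of its embryos, and the sex of the embryos is not given. The culture is described as running to the blastocyst stage, whereas the RNA samples are labelled as morulae.

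Glycolysis splits glucose into pyruvate and yields ATP without oxygen. Lactate dehydrogenase converts pyruvate to lactate and back, and monocarboxylate transporters carry both across the plasma membrane. The mitochondrial pyruvate carrier takes pyruvate into mitochondria, where the pyruvate dehydrogenase complex makes acetyl-CoA from it, and pyruvate dehydrogenase kinases switch that complex off. Cleaving mouse embryos depend on pyruvate and lactate and use little glucose, and glucose uptake and glycolysis increase toward the blastocyst.

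Libraries held 23641781 to 25677701 estimated counts each. All 12 morula marker genes were detected in both groups, 10 of them lower in A485 and 1, Krt8, higher. Among all genes tested 25.0% were lower and 29.7% higher. TPM (transcripts per 1000000, scaled to that total in each library) were used for the marker lists. The cumulus and granulosa markers summed to 20.4 to 35.5 TPM in A485 libraries and 12.6 to 21.4 TPM in control libraries. Amhr2 gave most of that sum, while 6 of the 12 (Fshr, Cyp19a1, Inha, Inhba, Ptx3 and Has2) had 0 counts in control, and Inha averaged 1.29 TPM in A485. Those 6 held 2, 3, 155, 35, 3 and 1 counts over the A485 group. Of the 2 cumulus and granulosa markers tested, Inha was higher in A485 (edgeR adjusted p = 3.59e-04) and Amhr2 did not pass (edgeR adjusted p = 0.456). Nr5a1, Fst, Tnfaip6 and Foxl2 held 230, 64, 59 and 18 counts over the A485 group and 4, 5, 2 and 1 over control. Each of these had its highest TPM in A485 replicate 3. Amh held 3 counts in each group. Leukocyte markers summed to 71.7 to 203 TPM in A485 and 34.4 to 49.4 TPM in control, chiefly from Cd68. Of the 4 tested, Cd68, Csf1r and Coro1a were higher and Cd52 was lower. Lyz2 and Tyrobp, not tested, held 35 and 0 counts over the A485 group and 36 and 1 over control. Cd52 averaged 4.13 ± 2.72 TPM in A485 and 10.7 ± 2.38 TPM in control, and Coro1a 6.59 ± 4.21 TPM in A485 and 1.17 ± 0.282 TPM in control. Csf1r, a receptor gene of macrophages and trophoblast, averaged 5.03 ± 4.10 TPM in A485 and 0.0225 ± 0.0250 TPM in control. Ptprc, the defining leukocyte gene, averaged 0.0225 ± 0.0263 TPM in A485 and 0.00500 ± 0.00577 TPM in control (SD, n = 4 per group). Oviduct markers summed to 171 to 310.0 TPM in A485 and 319.8 to 391 TPM in control, nearly all from Epcam, which the embryo itself expresses. Ovgp1, Pax8, Wt1 and Foxj1 held 57, 82, 38 and 14 counts over the A485 group and 21, 3, 1 and 0 over control. Cdhr3 held 0 over the A485 group and 14 over control. Cd68, Csf1r, Coro1a, Ovgp1, Pax8, Wt1 and Foxj1 also had their highest TPM in A485 replicate 3. Amhr2 had its highest TPM in A485 replicate 2, and Inha and Cd52 in A485 replicate 1. The part of these marker genes in the results below was not tested.

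In A485 embryos most genes of glucose uptake, glycolysis and lactate formation were higher, and the 5 pyruvate dehydrogenase and pyruvate carrier genes among the 34 were lower. All 34 genes passed the filter on low counts. By the quasi-likelihood test of edgeR, adjusted over 12936 genes by the Benjamini-Hochberg method, 20 of them rose and 6 fell at an adjusted p of 0.05, and 8 did not pass. Among all genes tested 54.7% passed, 29.7% higher and 25.0% lower. The median log2 fold change of A485 over control (log2FC) was 1.52 over the 34 genes and 0.085 over all genes tested. The log2FC of the 20 risen genes ran from 1.41 (Pdk3) to 5.37 (Slc16a3), and that of the 6 fallen genes from -0.58 (Mpc2) to -1.86 (Pgam2). The libraries of the groups did not overlap for 27 of the 34 genes, 21 higher and 6 lower in A485, where 51.5% of all genes tested did not overlap, 26.9% higher and 24.6% lower. In the authors' deposited table, where 43.9% of genes had a q-value under 0.05 (24.3% higher and 19.6% lower), 20 of the 34 were higher and 6 lower, with the same call and direction for each gene. In bulk RNA, fewer cells of a type and less RNA per cell cannot be told apart, and each change is relative to the other genes.

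**Figure D1:**
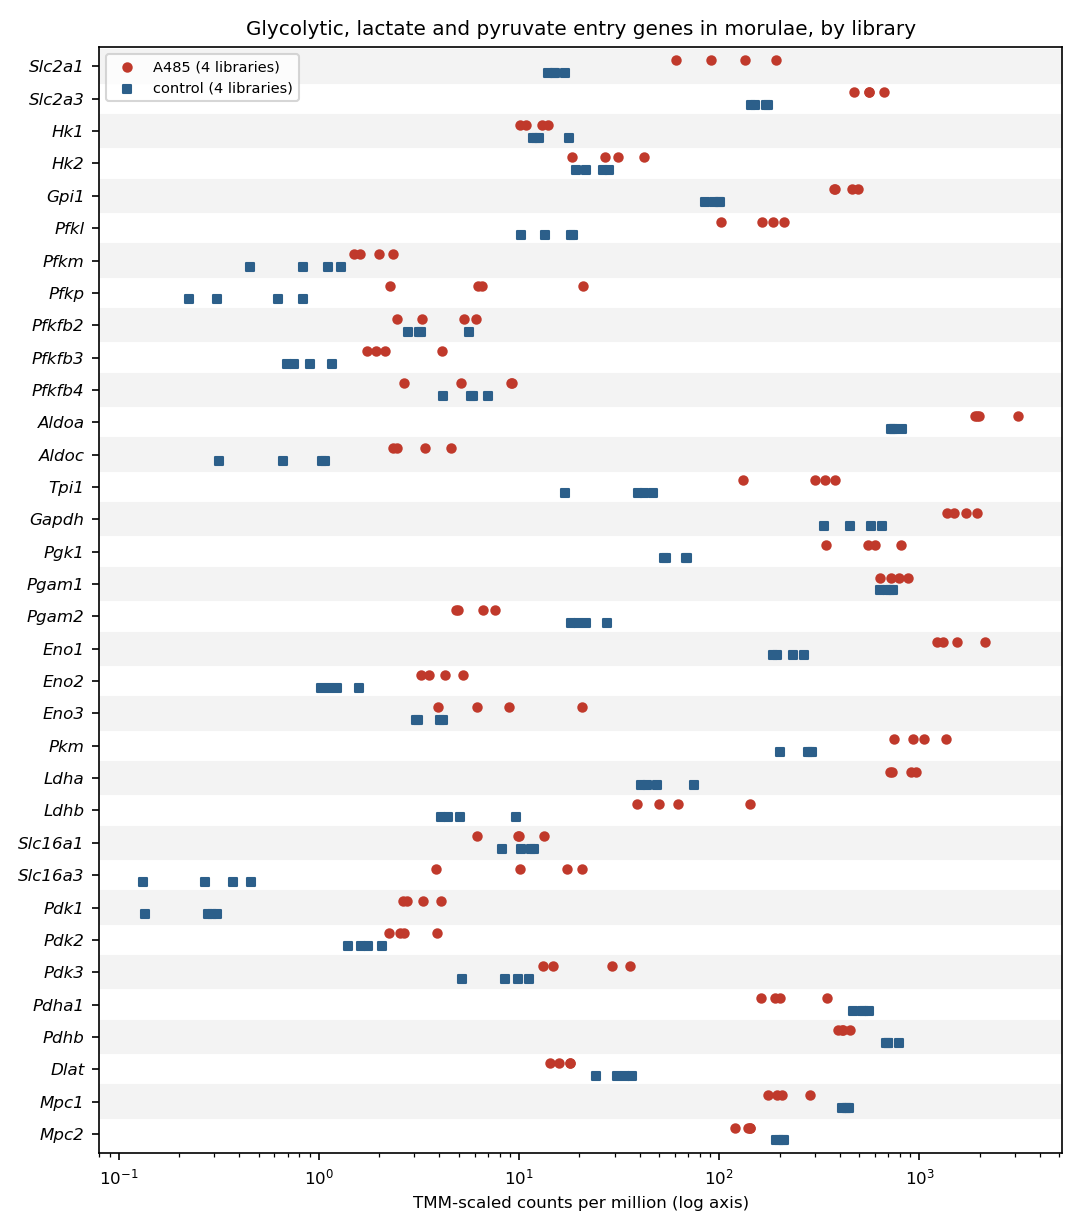
CPM (counts per 1000000, with library sizes scaled by TMM composition factors), on a log axis, for the 34 genes in pathway order from glucose uptake at the top to the pyruvate carrier at the bottom. Each point is 1 library, circles for A485 and squares for control. The groups do not overlap for 27 genes.

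Both glucose transporter genes among the 34 rose. Slc2a1, the widely expressed basal transporter GLUT1, had 61.0, 91.2, 134 and 193 CPM in the A485 libraries, against 15.0, 13.9, 15.1 and 17.0 CPM in the control libraries. All A485 libraries lay above all control libraries, with replicate 1 lowest and replicate 4 highest among the A485 libraries. The log2FC was 2.97 ± 0.32 (SE; edgeR adjusted p = 6.57e-05), and without A485 libraries 3 and 4 it was 2.32. Slc2a3, which encodes the high-affinity transporter GLUT3, had 469.9, 559.9, 559 and 667 CPM in the A485 libraries, against 175, 151, 144 and 171 CPM in the control libraries. Its groups did not overlap either, at a log2FC of 1.81 ± 0.14 (SE; edgeR adjusted p = 1.47e-05). Per length, Slc2a3 was the more abundant of the pair in both groups, at 175 ± 33.7 TPM in A485 and 39.7 ± 2.97 TPM in control, and Slc2a1 was at 59.4 ± 28.4 TPM in A485 and 6.0 ± 0.546 TPM in control (SD, n = 4 per group). TPM values are scaled to 1 total per library and carry no composition factor, so they are used to set isozymes side by side and not to test a change.

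Hexokinase, the first step inside the cell, showed no call. Hk1 and Hk2 encode the hexokinases that trap glucose as glucose 6-phosphate. Hk1 had 10.1, 13.0, 10.8 and 14.0 CPM in the A485 libraries, against 11.7, 17.7, 12.5 and 12.2 CPM in the control libraries, and Hk2 had 18.4, 26.9, 31.2 and 42.0 CPM in the A485 libraries, against 26.1, 19.3, 21.7 and 28.2 CPM in the control libraries. The ranges overlapped for both genes, with log2FC of -0.18 ± 0.20 for Hk1 and 0.32 ± 0.24 for Hk2 (SE; edgeR adjusted p of 0.470 and 0.290). Hk1 was above 0 under total-count scaling (0.12). Hk2 was lowest in A485 replicate 1 and highest in A485 replicate 4. Without A485 libraries 1 and 2 it passed, at a log2FC of 0.60, and without libraries 3 and 4 its log2FC was -0.072. Gpi1, encoding the isomerase that follows, rose, with 381, 374, 459 and 492 CPM in the A485 libraries, against 94.0, 100.3, 101 and 85.3 CPM in the control libraries. Its log2FC of 2.16 ± 0.14 (SE; edgeR adjusted p = 7.50e-06) came with a gap between the groups.

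Of the subunit genes of phosphofructokinase, the main control point of glycolysis, 2 of 3 rose. Pfkl, the liver-type subunit and the dominant one, had 102, 164, 186 and 210.3 CPM in the A485 libraries, against 18.2, 10.2, 18.6 and 13.4 CPM in the control libraries. The lowest A485 library was above 5 times the highest control library, and the log2FC was 3.45 ± 0.27 (SE; edgeR adjusted p = 1.64e-05). Pfkp, the platelet-type subunit, had 2.26, 6.22, 20.8 and 6.50 CPM in the A485 libraries, against 0.308, 0.226, 0.625 and 0.835 CPM in the control libraries. A485 replicate 3 stood well above the other A485 libraries. For Pfkp the log2FC was 4.15 ± 0.71 (SE; edgeR adjusted p = 8.31e-04), or 3.31 without A485 replicate 3, 4.74 without A485 libraries 1 and 2, and 3.08 without libraries 3 and 4. Pfkm, the muscle-type subunit, stayed under 3 CPM in every library, at 1.86 ± 0.389 CPM in A485 and 0.923 ± 0.366 CPM in control (SD, n = 4 per group). Its groups did not overlap, but at a log2FC of 1.01 ± 0.41 (SE) it did not pass in edgeR (adjusted p = 0.0584). It passed in DESeq2, limma-voom, with upper-quartile factors and with total-count scaling.

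Of the bifunctional enzymes that set fructose 2,6-bisphosphate, an activator of phosphofructokinase, 1 of the 3 among the 34 genes rose. Pfkfb3, the family member with the strongest kinase activity, had 2.13, 4.10, 1.94 and 1.74 CPM in the A485 libraries, against 0.749, 0.903, 1.17 and 0.696 CPM in the control libraries. A485 replicate 2 was the high library, yet all 4 lay above control. The log2FC was 1.49 ± 0.40 (SE; edgeR adjusted p = 0.00932), and the call was lost without A485 libraries 1 and 2 (1.04, adjusted p = 0.0762). Pfkfb2 and Pfkfb4 overlapped between groups, with log2FC of 0.21 ± 0.35 and 0.20 ± 0.37 (SE; edgeR adjusted p of 0.638 and 0.673). Pfkfb4 had 5.13, 9.22, 9.12 and 2.66 CPM in the A485 libraries, against 5.77, 5.87, 4.17 and 7.0 CPM in the control libraries, with A485 replicate 4 below and A485 replicates 2 and 3 above every control library. Pfkfb1, the liver-type and X-linked member outside the 34 genes, rose as well, averaging 8.48 ± 3.80 TPM in A485 and 3.21 ± 0.648 TPM in control (SD, n = 4 per group; log2FC 1.07 ± 0.32, SE; edgeR adjusted p = 0.0160). Per length it was the most abundant of the family in all 8 libraries. Tigar, which lowers the same activator through a bisphosphatase activity, fell with a log2FC of -1.87 ± 0.33 (SE; edgeR adjusted p = 9.21e-04), averaging 40.7 ± 17.8 TPM in A485 and 124 ± 14.9 TPM in control.

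From aldolase to pyruvate kinase, every step except phosphoglycerate mutase had a dominant isozyme that rose. Aldoa, the most abundant aldolase gene in both groups, had 1884, 1979, 1947 and 3115 CPM in the A485 libraries, against 739, 721, 821 and 745 CPM in the control libraries. A485 replicate 4 was the high library, and the other 3 lay close together, all above control. Its log2FC was 1.56 ± 0.18 (SE; edgeR adjusted p = 8.59e-05). Aldoc, the brain-type aldolase, rose to 3.19 ± 1.02 CPM in A485, against 0.771 ± 0.356 CPM in control (SD, n = 4 per group; log2FC 2.04 ± 0.44, SE; edgeR adjusted p = 0.00286). Tpi1, which interconverts the triose phosphates, had 131, 302, 379 and 336 CPM in the A485 libraries, against 46.9, 16.9, 39.4 and 42.3 CPM in the control libraries. Control replicate 2 and A485 replicate 1 were each low within their group, and the groups remained apart, at a log2FC of 2.98 ± 0.39 (SE; edgeR adjusted p = 2.45e-04).

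Gapdh, Pgk1 and Pkm rose as well. Gapdh, encoding glyceraldehyde-3-phosphate dehydrogenase and often used as a reference transcript, had 1482, 1717, 1372 and 1935 CPM in the A485 libraries, against 576, 334, 448 and 649.9 CPM in the control libraries. No control library reached an A485 library, at a log2FC of 1.70 ± 0.21 (SE; edgeR adjusted p = 1.40e-04). Pgk1, encoding the phosphoglycerate kinase that makes the first ATP of the pathway, had 343, 553, 601 and 805 CPM in the A485 libraries, against 69.0, 54.1, 68.0 and 52.8 CPM in the control libraries. Its log2FC was 3.24 ± 0.25 (SE; edgeR adjusted p = 1.45e-05), and A485 replicate 1 was again the lowest treated library. Pkm, encoding pyruvate kinase, had 743, 923, 1051 and 1353 CPM in the A485 libraries, against 284, 200.3, 278 and 291 CPM in the control libraries. For Pkm the log2FC was 1.95 ± 0.20 (SE; edgeR adjusted p = 5.16e-05). The gene-level table does not separate its splice forms PKM1 and PKM2.

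Phosphoglycerate mutase was the exception, since its dominant gene did not pass and its minor gene fell. Pgam1, the brain-type form, had 872, 723, 636 and 791 CPM in the A485 libraries, against 638, 715, 685 and 739 CPM in the control libraries. The ranges overlapped, at a log2FC of 0.12 ± 0.13 (SE; edgeR adjusted p = 0.452), and Pgam1 passed as higher only under total-count scaling (0.40, adjusted p = 0.0063). With that scaling the median log2FC of all genes was 0.37. Pgam2, the muscle-type form, fell, with 4.93, 4.83, 7.62 and 6.61 CPM in the A485 libraries, against 27.3, 19.7, 21.7 and 18.2 CPM in the control libraries. Its highest A485 library lay well under its lowest control library, at a log2FC of -1.86 ± 0.22 (SE; edgeR adjusted p = 9.32e-05). Of the 17 glycolytic enzyme genes among the 34, from Hk1 to Pkm without the bifunctional enzymes, 12 rose, Pgam2 fell and 4 did not pass. Over all genes tested 29.7% rose and 25.0% fell.

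All 3 enolase genes among the 34 rose, and Eno4, outside them, fell. Eno1, the ubiquitous form, had 1221, 1305, 1547 and 2118 CPM in the A485 libraries, against 234, 185, 264 and 194 CPM in the control libraries. The groups were separated by a wide gap, with a log2FC of 2.82 ± 0.21 (SE; edgeR adjusted p = 1.16e-05). Eno2, the neuronal form, averaged 4.07 ± 0.887 CPM in A485 and 1.24 ± 0.243 CPM in control (SD, n = 4 per group; log2FC 1.71 ± 0.30, SE; edgeR adjusted p = 8.50e-04). Eno3, the muscle form, had 6.20, 3.95, 8.88 and 20.7 CPM in the A485 libraries, against 4.18, 3.07, 3.13 and 4.04 CPM in the control libraries. Its lowest A485 library fell within the control range, and the rise of Eno3 leaned on A485 replicate 4. Eno3 had a log2FC of 1.46 ± 0.45 (SE; edgeR adjusted p = 0.0197) and 0.82 without that library. The call was lost without A485 libraries 3 and 4 (0.49, adjusted p = 0.195), without control replicate 3 (adjusted p = 0.0557) and in limma-voom (adjusted p = 0.0652). Eno4, a form known from sperm, averaged 0.350 ± 0.170 TPM in A485 and 0.685 ± 0.155 TPM in control (SD, n = 4 per group; log2FC -1.30 ± 0.42, SE; edgeR adjusted p = 0.0226). Estimated counts of Gpi1, Eno1, Eno3, Gapdh and Pdha1 were not whole in all 8 libraries, as arises where reads fit more than 1 place, so their values are uncertain to that extent.

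**Figure D2:**
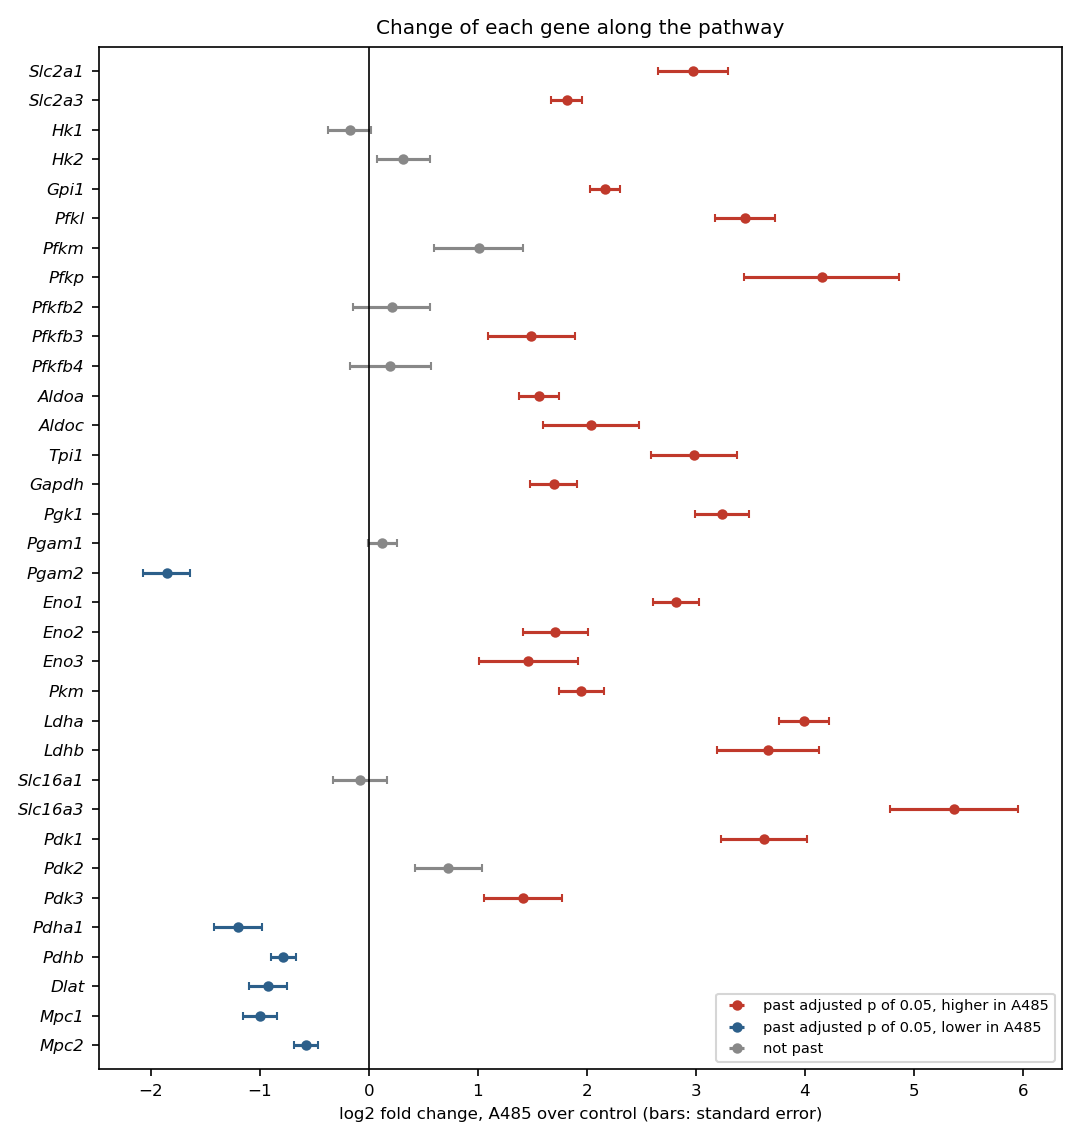
Log2FC of A485 over control from edgeR, with standard errors as bars, in pathway order. Red points passed the adjusted p of 0.05 as higher (20 genes), blue points as lower (6 genes) and grey points did not pass (8 genes).

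Both lactate dehydrogenase genes among the 34 rose. Ldha, whose subunit predominates in glycolytic tissues, had 709, 913, 729 and 963 CPM in the A485 libraries, against 75.0, 40.5, 49.0 and 43.7 CPM in the control libraries. The lowest A485 library was above 9 times the highest control library. Its log2FC of 3.99 ± 0.23 (SE; edgeR adjusted p = 5.61e-06) is a fold of 15.9. Ldhb, the heart-type subunit, had 50.2, 62.3, 143 and 39.0 CPM in the A485 libraries, against 9.64, 4.42, 5.04 and 4.08 CPM in the control libraries. A485 replicate 3 was high and the other 3 lay together above control, at a log2FC of 3.66 ± 0.47 (SE; edgeR adjusted p = 2.07e-04). Ldhc, the testis-type subunit and not among the 34 genes, rose, with 910 counts over the A485 group and 13 over the control group (log2FC 5.80 ± 0.65, SE; edgeR adjusted p = 7.98e-05).

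Of the 2 plasma membrane monocarboxylate transporter genes among the 34, Slc16a3 rose and Slc16a1 did not pass. Slc16a3, encoding MCT4, a transporter of strongly glycolytic cells that exports lactate, had 3.86, 20.5, 17.3 and 10.1 CPM in the A485 libraries, against 0.132, 0.271, 0.458 and 0.371 CPM in the control libraries. The control libraries held 3 to 11 counts each. The log2FC of 5.37 ± 0.59 (SE; edgeR adjusted p = 7.27e-05) was the highest of the 34 genes, and A485 replicate 1 was the lowest treated library. Slc16a1, encoding the widely expressed MCT1, had 6.16, 9.88, 13.4 and 9.98 CPM in the A485 libraries, against 11.9, 8.22, 10.2 and 11.5 CPM in the control libraries. These ranges overlapped, at a log2FC of -0.08 ± 0.25 (SE; edgeR adjusted p = 0.795). Its sign turned with several settings. Embigin (Emb), a chaperone of these transporters, rose with a log2FC of 3.29 ± 0.29 (SE; edgeR adjusted p = 2.23e-05), averaging 13.8 ± 3.0 TPM in A485 and 1.13 ± 0.514 TPM in control.

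Promoter windows are shown for Ldha, Slc16a3 and Pgk1, which had large rises, and for Mpc1, which fell. They are examples and not all the largest changes. Pfkp, Ldhb, Pdk1 and Pfkl rose more than Pgk1, and Pgam2 and Pdha1 fell more than Mpc1. Capitals mark ACGTG or GCGTG on either strand, the core letters recognised by hypoxia-inducible factors. The windows run from 250 bases before to 50 after an annotated RefSeq start (GRCm38.p6), 5′ to 3′ on the gene's strand.
Ldha, chr7:46845554-46845853, plus strand: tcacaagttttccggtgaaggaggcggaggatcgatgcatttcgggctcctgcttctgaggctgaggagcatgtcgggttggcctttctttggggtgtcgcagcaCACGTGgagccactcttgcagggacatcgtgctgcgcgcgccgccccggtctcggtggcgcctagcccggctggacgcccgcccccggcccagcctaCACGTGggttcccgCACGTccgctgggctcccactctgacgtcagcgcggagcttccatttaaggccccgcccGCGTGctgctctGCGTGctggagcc
Slc16a3, chr11:120948817-120949116, plus strand: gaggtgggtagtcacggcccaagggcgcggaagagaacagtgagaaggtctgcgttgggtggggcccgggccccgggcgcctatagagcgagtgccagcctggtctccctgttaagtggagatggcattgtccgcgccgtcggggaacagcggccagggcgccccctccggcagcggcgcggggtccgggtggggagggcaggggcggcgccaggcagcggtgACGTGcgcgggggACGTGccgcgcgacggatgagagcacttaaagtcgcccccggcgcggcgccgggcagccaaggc
Pgk1, chrX:106186850-106187149, plus strand: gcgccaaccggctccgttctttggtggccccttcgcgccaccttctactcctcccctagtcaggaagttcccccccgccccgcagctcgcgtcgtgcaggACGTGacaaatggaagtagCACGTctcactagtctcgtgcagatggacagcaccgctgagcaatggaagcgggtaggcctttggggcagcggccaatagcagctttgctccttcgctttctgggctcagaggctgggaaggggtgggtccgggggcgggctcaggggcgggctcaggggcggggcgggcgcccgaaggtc
Mpc1, chr17:8283537-8283836, plus strand: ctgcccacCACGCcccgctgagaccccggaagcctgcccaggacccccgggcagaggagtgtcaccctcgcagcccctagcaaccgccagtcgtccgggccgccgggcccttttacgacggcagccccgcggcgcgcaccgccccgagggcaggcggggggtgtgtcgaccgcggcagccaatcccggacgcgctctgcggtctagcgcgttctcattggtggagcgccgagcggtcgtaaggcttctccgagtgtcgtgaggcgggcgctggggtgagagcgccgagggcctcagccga
The Ldha window holds 7 matches, 5 of them to ACGTG, in which CACGTG, read on both strands, counts for 2. It also holds TGACGTCA, the full cyclic AMP response element, 12 bases before the start. The Slc16a3 window holds 2 matches, 27 and 14 bases before the start, and the Pgk1 window 2, at 150 and 131 bases before. The Mpc1 window holds 1, a GCGTG match on the other strand 242 bases before the start. A second annotated window of Ldha holds 2 matches, none to ACGTG, and a second window of Mpc1 holds none. Pfkp, Ldhb, Pdk1 and Pfkl, which also rose, have no ACGTG in a window, and Tpi1 has no match at all. Of the other fallen genes, Pdha1 has a window with 4 matches, none to ACGTG. Pdhb has 2 matches, Mpc2 has 1, and Dlat and Pgam2 have none. Slc16a1 and Hk1 did not pass, and each has a window with 5 matches.

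RefSeq windows were found for 33 of the 34 genes, 50 windows in all because some genes have several starts. ACGTG on either strand was in 22 of them (44.0%), against 24.9% of 13225 windows of tested genes. GCGTG was in 28 (56.0%), against 49.2%, and either of them in 38 (76.0%), against 60.6%. CACGTG, which contains ACGTG, was in 6 (12%), against 9.77%, and TGACGTCA in 1 (2.00%), against 2.99%. Counted by gene, 18 of 33 had ACGTG in a window, against 28.7% of 10413 tested genes with a window. They were 10 of the 20 that rose, 1 of the 6 that fell and 7 of the 8 that did not pass. Slc2a3, among the 20, had no window. These matches describe the letters of the windows only.

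Both genes of the mitochondrial pyruvate carrier fell. Mpc1, an obligate partner in the pyruvate carrier, had 283, 176, 205 and 194 CPM in the A485 libraries, against 428, 445, 435 and 410.0 CPM in the control libraries. The groups did not overlap, and A485 replicate 1 lay nearest to control. The log2FC was -1.0 ± 0.15 (SE; edgeR adjusted p = 4.32e-04). Mpc2, the other subunit of the carrier, had 143, 120.1, 139 and 142 CPM in the A485 libraries, against 211, 199, 192 and 209 CPM in the control libraries. That of Mpc2 was -0.58 ± 0.11 (SE; edgeR adjusted p = 0.00163), the smallest of the 6 falls, and again without overlap in CPM. In TPM, which carry no composition factor, Mpc2 overlapped, with A485 replicate 3 at 297.1 and control replicate 2 at 295.7.

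The 3 pyruvate dehydrogenase genes among the 34 fell too. Pdha1, encoding the X-linked E1 alpha subunit that carries the regulatory phosphorylation sites, had 347, 162, 189 and 200.3 CPM in the A485 libraries, against 560.0, 465, 527 and 515 CPM in the control libraries. A485 replicate 1 was the high treated library and still lay under all control libraries. For Pdha1 the log2FC was -1.20 ± 0.22 (SE; edgeR adjusted p = 0.00118). Pdhb, encoding E1 beta, had 448, 415, 393 and 408 CPM in the A485 libraries, against 793, 699, 693 and 679 CPM in the control libraries. Its log2FC was -0.78 ± 0.11 (SE; edgeR adjusted p = 3.13e-04). Dlat, encoding the E2 acetyltransferase core, averaged 16.5 ± 1.84 CPM in A485 and 31.4 ± 5.37 CPM in control (SD, n = 4 per group), at -0.93 ± 0.17 on the log2 scale (SE; edgeR adjusted p = 0.00122). No A485 library overlapped control in CPM for any of the 3. In TPM Dlat overlapped, with A485 replicate 3 at 6.08 and control replicate 1 at 5.73. Pgk1, Pdk3 and Pdha1 are X-linked, and the part of the pools' sex makeup in their values was not tested.

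Of the genes among the 34 for kinases that inhibit the complex, 2 of 3 rose. Pdk1 had 2.63, 2.74, 3.30 and 4.07 CPM in the A485 libraries, against 0.308, 0.135, 0.292 and 0.278 CPM in the control libraries. Control libraries held 3 to 7 counts each, and the groups did not overlap, at a log2FC of 3.62 ± 0.40 (SE; edgeR adjusted p = 6.66e-05). Pdk3 had 35.7, 29.2, 13.2 and 14.8 CPM in the A485 libraries, against 11.2, 8.53, 9.88 and 5.20 CPM in the control libraries. A485 libraries 1 and 2 lay well above A485 libraries 3 and 4. Pdk3 had a log2FC of 1.41 ± 0.36 (SE; edgeR adjusted p = 0.00712), and without A485 libraries 1 and 2 the call was lost (0.67, adjusted p = 0.0676). Pdk2 averaged 2.84 ± 0.738 CPM in A485 and 1.71 ± 0.280 CPM in control (SD, n = 4 per group). At a log2FC of 0.73 ± 0.31 (SE) it did not pass (edgeR adjusted p = 0.0654), though its groups did not overlap, and it passed with upper-quartile factors and total-count scaling. Of the phosphatases that reactivate the complex, not among the 34 genes, Pdp2 fell with a log2FC of -2.54 ± 0.35 and Pdp1 rose with 1.06 ± 0.34 (SE; edgeR adjusted p of 2.30e-04 and 0.0216).

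Isozyme makeup was compared as the share of the TPM that the genes among the 34 gave at each step. For 1 isozyme at each of 10 steps the group means were compared by exact permutation (two-sided, 70 assignments), for which the smallest possible p is 0.0286. At 6 steps the groups did not overlap, each with p = 0.0286 in the exact test and an adjusted p of 0.0476 over the 10 steps. As each p is the smallest possible, the adjusted p restates how many steps did not overlap. Groups of single genes did not overlap for 51.5% of all genes tested. The isozymes compared were chosen with earlier results of these data known. The largest difference was in monocarboxylate transport. Of the TPM of both transporters, Slc16a3 made up 53.7, 80.0, 71.7 and 66.2% in the A485 libraries, against 2.29, 5.85, 8.14 and 6.02% in the control libraries, so that it exceeded Slc16a1 in every A485 library and in no control library. Of the TPM of Slc2a1 and Slc2a3, Slc2a1 made up 17.1, 20.5, 27.6 and 31.4% in the A485 libraries, against 12.1, 12.7, 14.3 and 13.6% in the control libraries. Although Slc2a1 gained share, Slc2a3 made up at least 68.6% of this TPM in each A485 library.

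Of the TPM of Pdk1, Pdk2 and Pdk3, Pdk1 made up 3.74, 4.05, 9.51 and 9.97% in the A485 libraries, against 0.926, 0.825, 1.30 and 1.49% in the control libraries. Pdk3 held most of that TPM throughout, 71.5 to 90.2% in A485 libraries and 76.8 to 86.4% in control libraries. Of the TPM of Pfkfb2, Pfkfb3 and Pfkfb4, Pfkfb3 made up 18.1, 18.2, 9.45 and 22.4% in the A485 libraries, against 5.73, 7.39, 8.36 and 4.98% in the control libraries. Of mutase TPM, Pgam1 took 98.7, 98.5, 97.3 and 98.1% in the A485 libraries, against 91.0, 94.0, 93.2 and 94.6% in the control libraries, and Pgam2 the rest. Of enolase TPM, Eno1 took 99.3, 99.5, 99.1 and 98.8% in the A485 libraries, against 97.9, 98.0, 98.7 and 97.5% in the control libraries, a difference of 1.17 percentage points between group means.

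The shares were also computed over all listed isozymes of a step, an alternative chosen after the data were seen. With Pfkfb1 counted, Pfkfb3 made up 8.28, 7.55, 3.21 and 4.04% in the A485 libraries, against 3.0, 2.99, 3.85 and 2.49% in the control libraries, and the groups overlapped (exact permutation p = 0.0571, adjusted p = 0.0952). Pfkfb1 itself held 54.3 to 82.0% in A485 libraries and 47.6 to 59.6% in control libraries. Slc2a1, Eno1, Slc16a3 and Pdk1 still had groups without overlap, but with 5 such steps in place of 6 the adjusted p was 0.0571, above 0.05. Among the glucose transporters listed, Slc2a8 held 1.91 to 6.24% of the TPM in A485 libraries and 44.4 to 51.8% in control libraries, above Slc2a3 in 3 of 4 control libraries. Of that TPM, Slc2a3 held 67.0 to 77.3% in A485 libraries and 41.5 to 48.3% in control libraries. Its share was thus higher in A485 over all listed transporters and lower within the pair with Slc2a1.

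At the other 4 steps the share of the 1 isozyme compared overlapped between groups. Of the TPM of Ldha and Ldhb, Ldha held 91.4, 91.8, 79.5 and 95.0% in the A485 libraries, against 85.6, 87.7, 88.1 and 89.1% in the control libraries, with A485 replicate 3 the low library. Group means differed by 1.78 percentage points (exact permutation p = 0.657, adjusted p = 0.657), by 5.08 points without A485 replicate 3 and by -0.069 points without A485 replicate 4. The shares averaged 61.9 ± 5.92% in A485 and 55.5 ± 9.11% in control for Hk2 (SD, n = 4 per group; exact permutation p = 0.286, adjusted p = 0.357). For Pfkp they averaged 5.30 ± 4.09% in A485 and 3.33 ± 1.83% in control (SD, n = 4 per group; exact permutation p = 0.486, adjusted p = 0.540), and without A485 replicate 3 the difference was -0.051 points. Pfkl was the dominant phosphofructokinase everywhere, with 87.2 to 95.6% of the TPM of the step in A485 libraries and 85.0 to 92.9% in control libraries. Pfkm, whose share was not tested, did not overlap, with 1.17 to 1.98% in A485 libraries and 4.95 to 9.20% in control libraries. Aldoa averaged 99.9% of aldolase TPM in either group (exact permutation p = 0.229, adjusted p = 0.327).

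**Figure D3:**
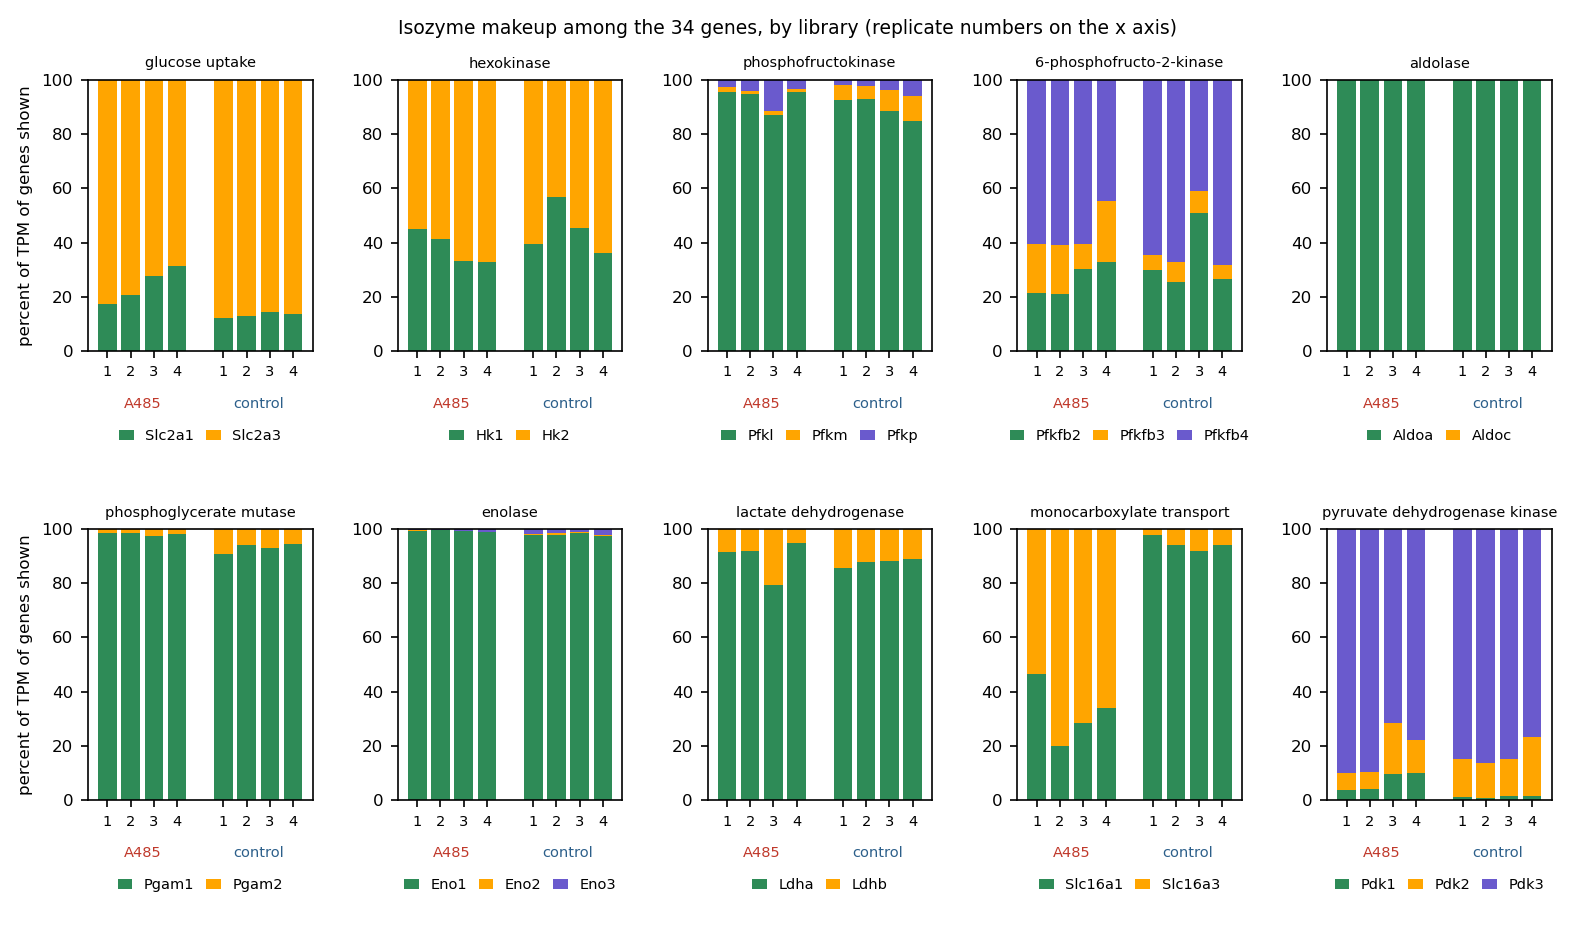
Stacked bars give the percent of TPM contributed by each isozyme among the genes of the 34 at each step, 1 bar per library, A485 libraries left and control libraries right in each panel. Slc16a3 makes up 53.7 to 80.0% of the TPM of Slc16a1 and Slc16a3 in A485 and 2.29 to 8.14% in control, while the shares of Ldha and Ldhb overlap.

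Set side by side per length, the 26 genes of glucose uptake through lactate transport took a percentage of all TPM of 0.557, 0.787, 0.814 and 0.948% in the A485 libraries, against 0.183, 0.154, 0.194 and 0.191% in the control libraries. The ratio of Ldha to Pdha1 TPM was 3.81, 10.5, 7.19 and 8.96 in the A485 libraries, against 0.25, 0.162, 0.173 and 0.158 in the control libraries. Ldha thus exceeded Pdha1 in every A485 library and in no control library. The TPM of Ldha and Ldhb together was 545, 865, 835 and 795 in the A485 libraries, against 56.1, 29.5, 38.4 and 31.6 in the control libraries. The summed TPM of Mpc1 and Mpc2 was 616, 538, 657 and 554 in the A485 libraries, against 843, 839, 889 and 825 in the control libraries. These sums describe the libraries and were not tested.

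**Figure D4:**
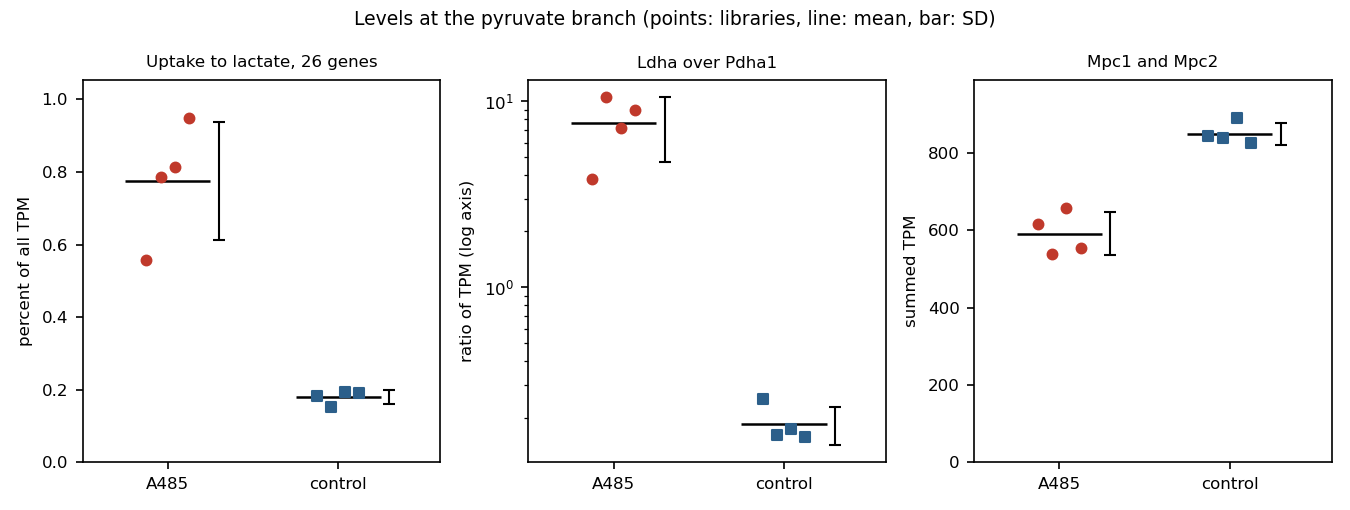
Left, percent of all TPM from the 26 genes of glucose uptake through lactate transport. Middle, ratio of Ldha to Pdha1 TPM on a log axis, which is 3.81 to 10.5 in A485 and 0.158 to 0.25 in control. Right, summed TPM of Mpc1 and Mpc2. Points are libraries, lines are means and bars are SD (n = 4 per group).

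The A485 libraries differed among themselves. A485 replicate 1 had the lowest CPM of the 4 treated libraries for 12 of the 20 risen genes and the highest for 4 of the 6 fallen genes. A485 replicate 4 had the highest CPM for 13 of the 20 risen genes. A485 replicate 3 had the highest CPM for 4 of them, with Pfkp and Ldhb among these, and the highest TPM of many cumulus, leukocyte and oviduct markers. Total counts were alike, whereas the TMM factor was 0.996 in A485 replicate 1, 1.08 to 1.21 in the other A485 libraries and 0.877 to 0.935 in control libraries. The share of counts held by the 100 most abundant genes was 26.0 to 30.0% in A485 libraries and 30.7 to 32.3% in control libraries. The part of these differences in the values above was not tested. Without A485 replicate 1, 20 genes rose and 6 fell, as with all libraries.

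Among the remaining isozymes and transport partners, 5 of the 12 tested rose and 3 fell, with a median log2FC of 0.18. Over all genes tested 29.7% rose and 25.0% fell, with a median log2FC of 0.085. This is the background for each list from here on. Slc2a8, a glucose transporter of internal membranes (GLUT8) known in the mouse blastocyst, fell, averaging 9.35 ± 2.74 TPM in A485 and 45.0 ± 4.67 TPM in control (SD, n = 4 per group; log2FC -2.60 ± 0.22, SE; edgeR adjusted p = 1.90e-05). Pklr, the liver and red cell pyruvate kinase gene, had 2 counts over the A485 group and 108 over the control group, and fell (edgeR adjusted p = 5.25e-04). Bsg, encoding basigin, the main chaperone of MCT1 and MCT4, was abundant in both groups at 1628 ± 245 TPM in A485 and 1077 ± 34.8 TPM in control and did not pass (log2FC 0.27 ± 0.12, SE; edgeR adjusted p = 0.0700). Of the 26 genes on that list 23 were in the table, and 11 of these did not pass the filter on low counts.

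In gluconeogenesis and other fates of pyruvate, 5 of 11 rose and 2 fell, with a median log2FC of 0.65. Of all genes tested 29.7% rose and 25.0% fell. Fbp2, encoding the muscle-type fructose bisphosphatase that opposes phosphofructokinase, was among the abundant genes of control embryos and fell, averaging 167 ± 81.5 TPM in A485 and 1063 ± 15.9 TPM in control (SD, n = 4 per group). Its log2FC was -2.93 ± 0.38 (SE; edgeR adjusted p = 1.85e-04). The malic enzyme genes Me1 and Me2, whose products make pyruvate from malate, rose, at log2FC of 2.04 ± 0.29 and 1.10 ± 0.15 (SE; edgeR adjusted p of 3.05e-04 and 2.35e-04). Of the 8 partner genes of pyruvate dehydrogenase 1 rose and 2 fell, with a median of -0.21. Lias, needed to make the complex's lipoyl cofactor, fell with a log2FC of -1.60 ± 0.18 (SE; edgeR adjusted p = 8.15e-05), while Dld and Pdhx, encoding further subunits of the complex, had 0.25 ± 0.14 and -0.21 ± 0.16 (SE) and did not pass.

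In the citric acid cycle 6 of 16 fell and 3 rose, with a median of -0.19, where 25.0% of all genes tested fell and 29.7% rose. Sucla2 and Idh3g fell, with log2FC of -1.20 ± 0.13 and -0.94 ± 0.13 (SE), and Sdhd and Dlst rose with 1.14 ± 0.15 and 1.10 ± 0.18 (SE). Of the pentose phosphate genes 3 of 8 rose and none of the 8 fell in edgeR, with a median of 0.040. G6pdx, encoding the X-linked glucose-6-phosphate dehydrogenase that opens that pathway, averaged 158 ± 59.5 TPM in A485 and 17.3 ± 4.42 TPM in control (SD, n = 4 per group; log2FC 2.85 ± 0.28, SE; edgeR adjusted p = 4.22e-05). Pgls and H6pd rose with 1.49 ± 0.24 and 1.56 ± 0.49 (SE). Among glycogen genes 6 of 10 rose and 2 fell, with a median of 0.58. Pgm2, a phosphoglucomutase gene, and Gyg, the glycogenin that primes glycogen, rose, at log2FC of 4.40 ± 0.29 and 3.00 ± 0.27 (SE), Gbe1, the branching enzyme gene, rose with 1.13 ± 0.32, and Pygl, the liver glycogen phosphorylase gene, fell with -1.85 ± 0.32 (SE).

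Among 10 regulators of the pathway 3 rose and 5 fell, with a median of -0.52, where 29.7% of all genes tested rose and 25.0% fell. Hif1a, the oxygen-regulated factor that activates many glycolytic genes, rose, averaging 3.69 ± 1.22 TPM in A485 and 1.36 ± 0.411 TPM in control (SD, n = 4 per group; log2FC 1.09 ± 0.29, SE; edgeR adjusted p = 0.00857). Epas1, encoding the related factor HIF2 alpha, and Myc, another activator of glycolytic genes, fell, at log2FC of -2.64 ± 0.32 and -2.11 ± 0.34 (SE; edgeR adjusted p of 1.23e-04 and 5.47e-04). Txnip, whose product restrains glucose uptake, and Mlxip, encoding the glucose-sensing factor MondoA that activates Txnip, rose with 3.35 ± 0.40 and 2.58 ± 0.33 (SE; edgeR adjusted p of 1.06e-04 and 1.51e-04). Txnip averaged 2.42 ± 0.662 TPM in A485 and 0.195 ± 0.0785 TPM in control (SD, n = 4 per group). Mlx, on the same list, fell with -0.61 ± 0.15 (SE; edgeR adjusted p = 0.00619).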

How the data were processed

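Per the submitters' processing notes, HISAT2 2.2.1, RSEM 1.2.28, DESeq2 1.40.2 and GRCm38.p6 were used. Their settings and the strandedness are not given. The authors deposited 1 table with, per library, estimated counts, FPKM, TPM and normalized counts (estimated counts divided by 1 factor per library, a scaled signal), plus their log2 fold change, p-value and q-value. Per the labels' protocols, low-input cDNA was preamplified, so counts include PCR copies, and a library pools 3 embryos as 1 biological replicate; separate litters or days are not stated, so p-values measure the spread between these pools.

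Estimated counts were rounded to whole numbers. R 4.3.3 and edgeR 4.0.16 tested 12936 genes that passed filterByExpr, with TMM factors and a robust quasi-likelihood fit on group. SE is the log2 fold change over the square root of F. CPM were computed with TMM-scaled library sizes. Shares used deposited TPM, with the exact permutation test in Python 3.11.15. The code was tested on simulated data. Members, lists, tests and motifs were chosen with earlier results of these data known. The rule named all 34 genes, up to 4 called genes of smallest p per other list, Hif1a and Myc; other genes named were chosen after their values were seen. Chi-square over its degrees of freedom was at least 57.8 for A485 pairs and 18.8 for control pairs, so no pair agreed within sampling noise. Alternatives were RLE, upper-quartile and total-count scaling, other filters, DESeq2 1.42.0, limma-voom (limma 3.58.1), non-robust dispersion, a replicate block and left-out libraries.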

Additional observations from a re-analysis of the deposited data

Results flagged for a closer look

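Within a group of 4 libraries, 1 library stood apart from the other 3 in 5 of 88 groups examined (34 genes and 10 shares, 2 groups each), and chance gives about 1 in 20. Pfkfb3 was high in A485 replicate 2 at 4.10 CPM, and Aldoa was high in A485 replicate 4 at 3115 CPM. Hk1 was high in control replicate 2 at 17.7 CPM, and Pfkfb2 in control replicate 3 at 5.63 CPM. Pkm was low in control replicate 2 at 200.3 CPM.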

How the results depend on the processing

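Over the alternative scalings, filters, tools and left-out libraries, the number of the 34 genes lower in A485 was 6 throughout, and the number higher was 19 to 23, except 13 with a filter of at least 5 CPM in 4 libraries, which tests only 24 of them. Leaving out each library in turn gave 19 to 20 higher and 6 lower each time, and 6479 to 7685 called genes in all. The replicate block gave 20 higher, 6 lower and 6671 called genes in all, and changed no call among the 34 genes. Deviations of same-numbered libraries from their group means correlated at 0.0051 to 0.104, so the numbers were not taken as pairs. A485 libraries 1 and 2 correlated with control libraries 1 and 2 at 0.0051 to 0.143. For libraries 3 and 4 of both groups the values were 0.0645 to 0.104. Between these sets all values were negative, -0.127 to -0.0188. Whether the libraries were handled in such sets is not stated, and a shared structure was not tested. Log2 fold changes turned sign only among uncalled genes. Hk1 had a log2 fold change of 0.12 under total-count scaling, and Hk2 of -0.072 without A485 libraries 3 and 4. Slc16a1 had 0.014 with upper-quartile factors, 0.23 with total-count scaling, 0.052 with the 5 CPM filter, 0.14 without A485 libraries 1 and 2, and -0.27 to 0.078 without 1 library. Without 1 library Pfkfb2 had -0.0093 to 0.44 and Pfkfb4 -0.016 to 0.46. The cause was not tested. From estimated counts in place of TPM, or from FPKM, the 10 shares kept their direction and side of the threshold, with Slc16a3 50.2 and 62.4 percentage points higher in A485. Over all listed isozymes of a step, a setting chosen after the data were seen, the Pfkfb3 share was 2.69 points higher in A485 (exact permutation p = 0.0571) and no longer passed, while 7 other shares kept their direction and side of the threshold before adjustment. Without 1 library the shares were not tested again, and the difference for Slc16a3 was 58.3 to 67.0 points. Counts of 3 to 11 in control libraries limit Slc16a3 and Pdk1.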
